A study of Mus musculus with 15 samples.

Results

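The miRNAs miR-192-5p, miR-192-3p, miR-194-5p and miR-215-5p come from a pair of duplicated hairpin clusters, and all 4 rows (mmu-miR-192-5p, mmu-miR-192-3p, mmu-miR-194-5p and mmu-miR-215-5p, here without the mouse prefix) were chosen by name in the tables of small RNA from mouse Kupffer cells. They are 4 of 248 mature miRNAs with values at both ages. Kupffer cells are the resident macrophages of the liver. Libraries came from wt mice, labelled C57BL/6J, and from obese, leptin-deficient ob/ob mice, at 9 weeks (wt n = 4, ob/ob n = 3) and 14 weeks (n = 4 each). The labels name no treatment, and no source used here gives the strain background of the ob/ob mice. Whether each replicate was a separate animal is not said either, so the p-values describe spread between samples that may be technical.

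miRNAs are short RNAs cut from hairpin precursors, and each hairpin can give a 5p and a 3p arm, of which one usually accumulates. The seed, bases 2 to 8 of the mature strand, does most of the pairing with target mRNAs. Members of this family are abundant in intestine, kidney and liver epithelium and are low in most blood cells. Their host transcripts are known to respond to hepatocyte nuclear factors and, in human cells, to p53. In liver they are known mainly from hepatocytes.

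Below are the mature strands, 5′ to 3′, with the seed in capitals, because the seed decides which members can be treated as relatives. Sequences and positions are those of RefSeq on GRCm38.p6, matched by name for all 4 members.
miR-192-5p: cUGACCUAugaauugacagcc
miR-215-5p: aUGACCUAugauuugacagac
miR-194-5p: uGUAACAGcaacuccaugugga
miR-192-3p: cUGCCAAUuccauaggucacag
miR-192-5p and miR-215-5p share the seed UGACCUA and are identical at 18 of 21 positions. Counted from 1 at the 5′ end, with the base of miR-192-5p given first, the differences are C1A, A12U and C20A. Of 218 listed miRNAs with a sequence in the table, no others carried this seed, and miR-194-5p and miR-192-3p each had a seed of their own.

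The hairpins are shown with the strands of the 4 members in capitals, because they place the members that are made together side by side.
Mir192: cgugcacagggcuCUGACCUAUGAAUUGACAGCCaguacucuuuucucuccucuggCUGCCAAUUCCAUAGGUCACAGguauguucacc
Mir194-2: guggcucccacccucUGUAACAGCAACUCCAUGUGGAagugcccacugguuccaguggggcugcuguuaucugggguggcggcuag
Mir194-1: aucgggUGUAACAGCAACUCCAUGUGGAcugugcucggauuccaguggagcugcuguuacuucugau
Mir215: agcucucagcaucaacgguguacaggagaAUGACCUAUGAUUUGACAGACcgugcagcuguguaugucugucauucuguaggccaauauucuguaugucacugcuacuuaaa
Mir194-2 (chr19:6264643-6264728) and Mir192 (chr19:6264844-6264932) lie on the plus strand, 115 bases apart. In GENCODE vM21, Atg2a lies upstream on that strand and ends 2307 bases before Mir194-2. Other genes around this pair were not searched for. Mir194-1 (chr1:185313319-185313385) and Mir215 (chr1:185313581-185313692) lie on the plus strand of chromosome 1, 195 bases apart. Both are inside the non-coding gene 2010103J01Rik, Mir194-1 in its intron and Mir215 in exon 2, and both are antisense to an intron of Iars2. The mature miR-194-5p is the same letter for letter from either hairpin, so its value cannot be split between the loci. No source used here says how reads common to both were counted. Each of the other members comes from a single locus.

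The values are taken as RPM, reads per 1000000 reads, a unit inferred from the values. As the files show it, the 248 listed miRNAs summed to 147387 to 358621 RPM per library, and the lowest sum belonged to wt replicate 1 of 14 weeks. In each library, values lay near whole multiples of 1 step. If the unit is RPM, counting those steps puts depth between 9.08 and 98.1 M reads (M, 1000000). This implied depth went with genotype: at 9 weeks it ran from 13.4 to 22.8 M reads in wt and from 25.9 to 33.9 M in ob/ob. At 14 weeks the wt libraries had 9.08 to 39.0 M and the ob/ob libraries 44.0 to 98.1 M, so depth overlapped at neither age. Its part in the results was not tested. The macrophage miRNA miR-142a-5p stood at 1756 to 4320 RPM across the libraries of the wt groups and 2060 to 3906 across those of the ob/ob groups. Its other arm, miR-142a-3p, was listed between 0.159 and 18.6 RPM in ob/ob at 14 weeks and at no more than 0.150 RPM in the other groups. miR-511-3p, another macrophage miRNA, averaged 159 ± 11.8 RPM in the 9-week wt libraries (SD, n = 4), 77.9 ± 23.9 in ob/ob of that age (n = 3), and 150 ± 49.6 and 130 ± 20.3 RPM in wt and ob/ob of 14 weeks (n = 4 each). In bulk RNA like this, fewer cells of a type and less RNA per cell cannot be told apart.

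miR-192-5p was the leading member in each of the 15 libraries, followed by miR-194-5p, miR-215-5p and miR-192-3p in that order, on the RPM scale, which is not divided by length for strands of 21 to 22 bases. miR-192-5p held places 9 to 28 among the 248 miRNAs and made up, at 9 weeks, 0.460% ± 0.115 of the listed sum in the wt libraries (SD, n = 4) and 1.85% ± 0.244 in the ob/ob libraries (n = 3). At 14 weeks its share was 0.534% ± 0.320 in wt and 1.69% ± 0.618 in ob/ob (n = 4 each). miR-194-5p held places 43 to 65 and miR-215-5p places 55 to 87. miR-192-3p stayed under 1 RPM in all 15 libraries.

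**Figure D1:**
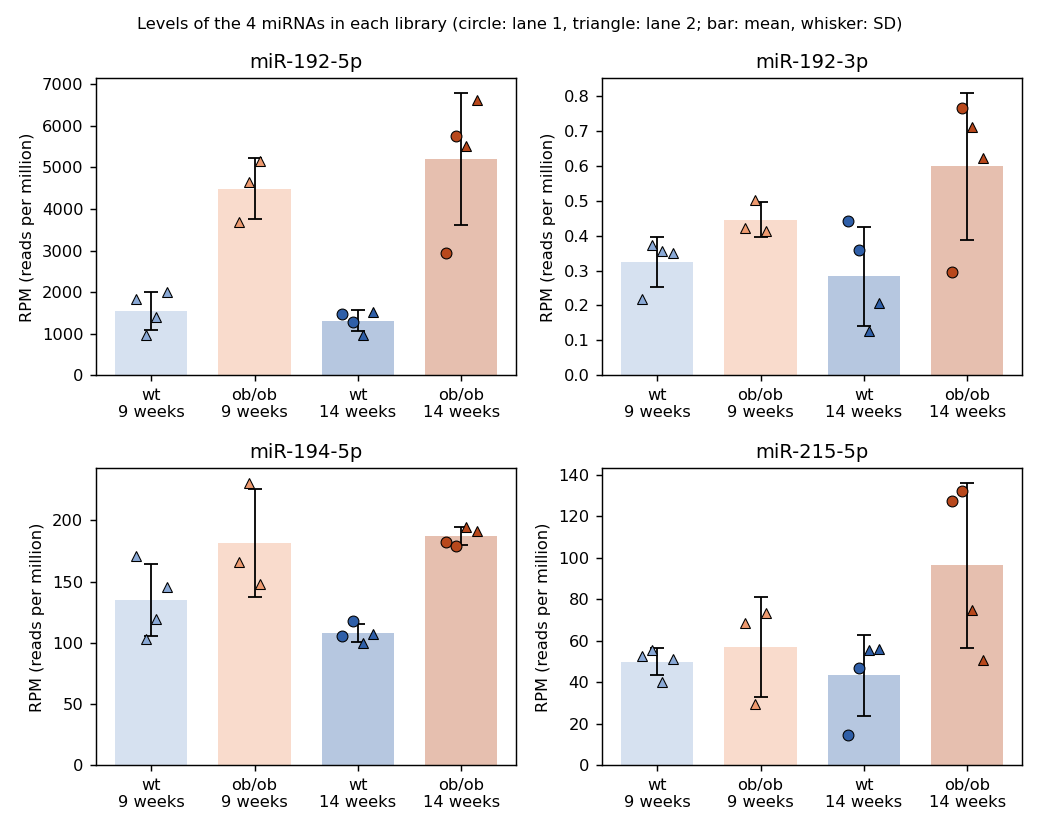
RPM of the 4 miRNAs (y axes, linear from 0) by genotype and age; points are libraries (circles lane 1, triangles lane 2), bars are means and whiskers SD. The miR-192-5p points of ob/ob lie above those of wt at both ages, with a lowest ob/ob value of 2937 RPM at 14 weeks against a highest wt value of 1524.

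miR-192-5p was higher in ob/ob than in wt Kupffer cell libraries at both ages. At 9 weeks its level was 1828, 978, 1410 and 2007 RPM in wt replicates 1 to 4 and 3687, 4647 and 5148 RPM in ob/ob replicates 1 to 3. All ob/ob libraries were above all wt libraries, which held for 7.26% of the 179 miRNAs tested at that age. Its log2 fold change was 1.57 ± 0.27 (SE, limma adjusted p = 0.00529), and 5.03% of the tested miRNAs were called higher. Its fold change held place 6 among the 179 tested.

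At 14 weeks the wt libraries had 1482, 1277, 983 and 1524 RPM of miR-192-5p and the ob/ob libraries 2937, 5762, 5521 and 6628 RPM. Again the groups did not overlap as deposited, which was so for 22.2% of the 171 miRNAs tested. ob/ob replicate 1 was the lowest of its group and still above the highest wt library. After the rescaling described below the groups overlapped, with ob/ob replicate 1 at 2490 RPM and wt replicate 1 at 2566 RPM. As deposited, the log2 fold change was 1.94 ± 0.30 (SE, limma adjusted p = 0.00256), place 7 of 171, where 11.7% were called higher. The ranges of wt at 9 and 14 weeks overlapped, and so did those of ob/ob. By mean, the 4 groups rose from wt at 14 weeks through wt at 9 weeks and ob/ob at 9 weeks to ob/ob at 14 weeks. Levels were not tested between the ages.

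miR-194-5p, made from the hairpin beside Mir192 and from the one beside Mir215, had log2 fold changes under 1 at both ages. At 9 weeks it was at 171, 103, 120 and 145 RPM in the wt libraries and 166, 231 and 148 RPM in the ob/ob libraries. The groups overlapped, and 1 ob/ob library, replicate 2, lay above the highest wt library. The log2 fold change of 0.43 ± 0.24 (SE) did not pass (limma adjusted p = 0.195).

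At 14 weeks miR-194-5p was at 105, 118, 100.2 and 108 RPM in wt and at 183, 179, 195 and 191 RPM in ob/ob. As deposited, the groups were apart, which was so for 22.2% of the 171 miRNAs tested. Both were tight on that scale, with a coefficient of variation of 6.86% in wt and 3.84% in ob/ob. The log2 fold change was 0.79 ± 0.22 (SE, limma adjusted p = 0.0352). Leaving out any 1 library other than wt replicate 1 or ob/ob replicate 1 ended this call (adjusted p = 0.0730 to 0.128), as did lane as a covariate (0.0579).

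miR-215-5p, the seed relative of miR-192-5p, varied more between libraries of a group. At 9 weeks it was at 52.8, 55.7, 40.4 and 51.3 RPM in wt and at 68.8, 29.4 and 73.2 RPM in ob/ob. ob/ob replicate 2 had the lowest miR-215-5p and the highest miR-194-5p of all libraries of that age. The log2 fold change was 0.09 ± 0.33 (SE, limma adjusted p = 0.868) and turned negative without wt replicate 3 (-0.01), ob/ob replicate 1 (-0.10) or ob/ob replicate 3 (-0.14), while it was 0.51 without ob/ob replicate 2.

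At 14 weeks miR-215-5p was at 14.5, 47.0, 55.6 and 56.1 RPM in wt and at 127, 132, 74.8 and 50.9 RPM in ob/ob. wt replicate 1 was the lowest and ob/ob replicate 4 lay within the wt range, so the groups overlapped. The log2 fold change was 1.21 ± 0.49 (SE, limma adjusted p = 0.117). It was 0.76 without wt replicate 1, the library with the low listed sum.

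miR-192-3p, the arm opposite miR-192-5p, was close to the limit of these libraries and did not pass the filter on low values (at least 1 RPM in 3 libraries at 9 weeks or 4 at 14 weeks). In wt it stood at 0.220, 0.372, 0.355 and 0.350 RPM at 9 weeks, which in each of the 4 libraries was 5 reads by the implied depth. In ob/ob at 9 weeks it was at 0.420, 0.502 and 0.413 RPM, or 13 to 14 reads. At 14 weeks it was at 0.441, 0.359, 0.127 and 0.208 RPM in wt, or 3 to 14 reads, and at 0.295, 0.765, 0.712 and 0.621 RPM in ob/ob, or 13 to 75 reads. Each ob/ob library of 9 weeks was above the wt range, and at 14 weeks ob/ob replicate 1 fell within it. Such separation at 9 weeks held for 7.26% of the 179 miRNAs that passed the filter, as deposited. No share was taken over miRNAs below the filter, where miR-192-3p lies. Fitted without the filter, with 248 miRNAs tested, the log2 fold change was 0.20 ± 0.18 (SE, limma adjusted p = 0.462) at 9 weeks and 0.48 ± 0.21 (adjusted p = 0.155) at 14 weeks, on a log2(RPM + 0.5) scale that understates changes this far below 1 RPM.

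As deposited, the 179 miRNAs tested at 9 weeks had a median log2 fold change of -0.51, with 32.4% called lower and 37.4% in either direction, and those tested at 14 weeks a median of 0.20, with 3.51% lower and 15.2% in either direction. Median-ratio rescaling brings the libraries of an age to a common centre by a single factor each, and it set both medians near 0. On that scale miR-192-5p had log2 fold changes of 2.08 ± 0.27 (SE, limma adjusted p = 0.00589) at 9 weeks and 1.72 ± 0.39 (adjusted p = 0.0104) at 14 weeks. Of the miRNAs tested there, 11.3% at 9 weeks and 15.5% at 14 weeks were called higher, and 10.2% and 12.5% lower.

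The calls of the other members depended on the scale. Rescaled, miR-194-5p rose at 9 weeks (log2 fold change 0.93 ± 0.22, SE, limma adjusted p = 0.0238), a call that ended without wt replicate 3 (adjusted p = 0.0691) or ob/ob replicate 1 (0.0520). At 14 weeks its rescaled log2 fold change was 0.58 ± 0.25 (adjusted p = 0.120), and without wt replicate 1 it was 0.79 (adjusted p = 0.0139). The rescaled levels of miR-194-5p at 14 weeks overlapped, with 90.1 to 182 RPM in wt and 155 to 204 RPM in ob/ob. miR-215-5p did not pass at 9 weeks (0.59 ± 0.34, adjusted p = 0.232), though it did without ob/ob replicate 2 (1.08, adjusted p = 0.00737). It rose at 14 weeks (1.0002 ± 0.32, adjusted p = 0.0457), a call that was kept only without ob/ob replicate 4 (adjusted p = 0.0326) and lost without any other library (0.0658 to 0.127).

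**Figure D2:**
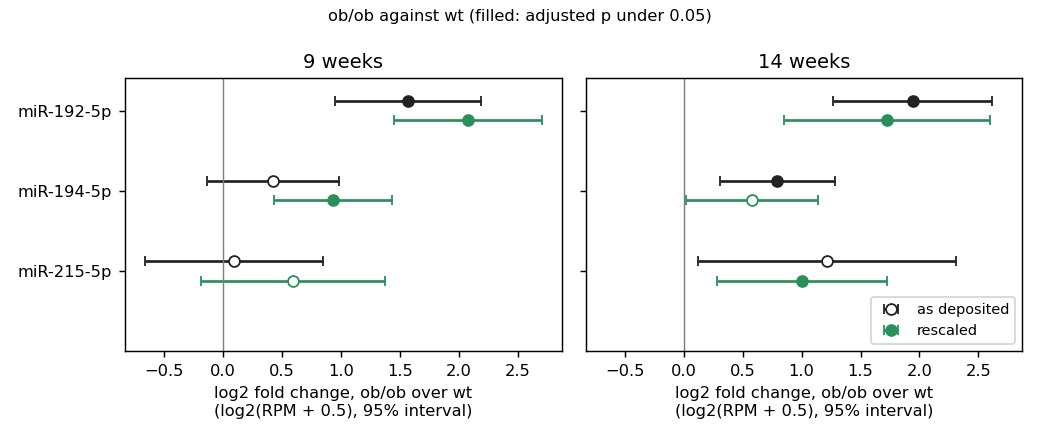
log2 fold change of ob/ob over wt on the log2(RPM + 0.5) scale (x axis) with its 95% interval for the 3 tested members, as deposited (black) and rescaled (green), at 9 weeks (left) and 14 weeks (right); filled points passed an adjusted p of 0.05. miR-192-5p is filled on both scales at both ages, from 1.57 to 2.08, while miR-194-5p is filled on 1 scale at each age and miR-215-5p on 1 scale at 14 weeks.

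Per the labels, lane 2 held every library of 9 weeks, and at 14 weeks lane 1 held replicates 1 and 2 and lane 2 the others, for wt as for ob/ob. Within lane 1 the log2 fold change of miR-192-5p at 14 weeks was 1.58 (limma adjusted p = 0.377), and within lane 2 it was 2.30 (adjusted p = 0.0118). miR-194-5p had 0.70 (adjusted p = 0.738) and 0.89 (adjusted p = 0.0348). miR-215-5p had 2.28 (adjusted p = 0.159) in lane 1, which holds the low wt replicate 1, and 0.14 (adjusted p = 0.692) in lane 2. Each lane compares 2 libraries with 2, and lane 1 gave 1 call over all miRNAs.

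Whether the ob/ob effect differed between the ages was tested as the interaction of genotype and age over all 15 libraries. None of the members passed, with log2 differences (14 weeks minus 9 weeks) of 0.37 ± 0.42 (SE, limma adjusted p = 0.555) for miR-192-5p, 0.37 ± 0.30 (adjusted p = 0.416) for miR-194-5p and 1.12 ± 0.65 (adjusted p = 0.271) for miR-215-5p. For miR-192-5p the 95% interval ran from -0.52 to 1.27. By limma no miRNA of 187 passed (0.0%), and 48 had an unadjusted p under 0.05. Without the filter limma called 4, and with a replicate block 2. Leaving out 1 library moved the difference between 0.23 and 0.63 for miR-192-5p, 0.23 and 0.55 for miR-194-5p and 0.67 and 1.39 for miR-215-5p, and no member passed. After rescaling the sign turned for miR-192-5p (-0.35) and miR-194-5p (-0.36).

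A ratio of RPM values between members of a library does not depend on how that library was scaled. The tests used log2(RPM + 0.5), where the added 0.5 weighs on miR-192-3p and hardly on the other members. The ratio of miR-192-5p to its neighbour on chromosome 19, miR-194-5p, was 9.46 to 14.2 in the 8 wt libraries and 16.1 to 34.8 in the 7 ob/ob libraries, so the genotypes were apart across both ages. At 9 weeks its mean log2 was 3.50 ± 0.23 for wt (SD, n = 4) and 4.64 ± 0.42 for ob/ob (n = 3), a difference of 1.14 (two-sided exact permutation p = 0.0571, adjusted over 8 ratio tests 0.0914). At 14 weeks it was 3.59 ± 0.27 and 4.73 ± 0.50 (n = 4 each), a difference of 1.15 (exact permutation p = 0.0286, adjusted 0.0914). These are the smallest p-values that 4 against 3 and 4 against 4 libraries can give, and adjusted over 8 tests no ratio could pass 0.05 whatever its values. miR-194-5p also comes from chromosome 1, so this ratio is not one of a single transcript.

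**Figure D3:**
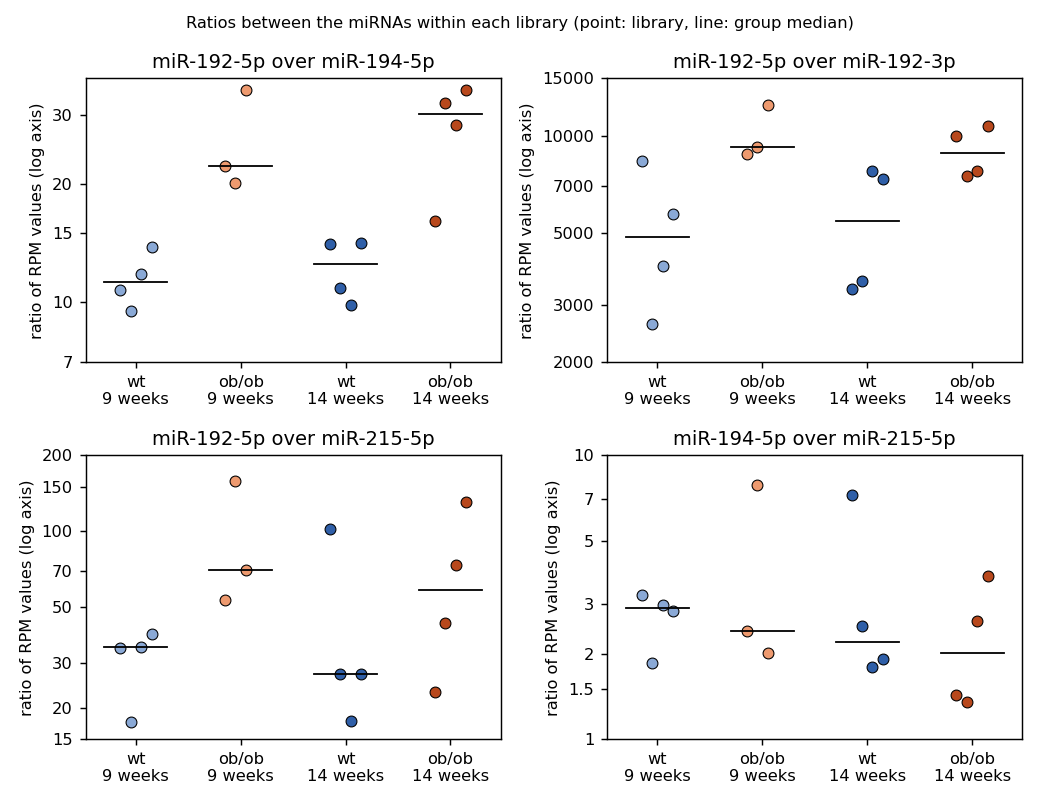
Ratios of RPM values between members (y axes, logarithmic) in each library by genotype and age; points are libraries and lines are group medians. For miR-192-5p over miR-194-5p all ob/ob points, from 16.1 upwards, lie above all wt points, which end at 14.2, while the ranges of miR-194-5p over miR-215-5p overlap at both ages.

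For the seed relatives, the ratio of miR-192-5p to miR-215-5p at 9 weeks was 17.5 to 39.1 in wt and 53.6 to 158 in ob/ob, so the groups were apart (difference of mean log2 ratios 1.48, exact permutation p = 0.0571, adjusted 0.0914). At 14 weeks it was 17.7 to 102 in wt and 23.1 to 130 in ob/ob and the groups overlapped (0.73, exact permutation p = 0.343, adjusted 0.457). The difference at 14 weeks was 1.25 without wt replicate 1 and 1.15 without ob/ob replicate 1, against 0.42 without wt replicate 3 and 0.32 without ob/ob replicate 4. The ratio of miR-194-5p to miR-215-5p, the neighbours on chromosome 1, was 1.85 to 3.23 in wt and 2.02 to 7.86 in ob/ob at 9 weeks, and 1.80 to 7.24 and 1.36 to 3.76 at 14 weeks. Its log2 difference was 0.34 (exact permutation p = 0.743, adjusted 0.743) and -0.42 (exact permutation p = 0.571, adjusted 0.653). These differences were within the spread of the libraries, and both turned sign without 1 library, ob/ob replicate 2 at 9 weeks (-0.27) and wt replicate 1 at 14 weeks (0.03).

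The arms of the miR-192 hairpin were far apart in level. miR-192-3p made up 0.0120% to 0.0381% of the hairpin's reads in wt and 0.00802% to 0.0114% in ob/ob at 9 weeks, and 0.0129% to 0.0297% and 0.00937% to 0.0133% at 14 weeks. At 9 weeks each ob/ob share lay below each wt share, and at 14 weeks the groups overlapped. The log2 ratio of 5p to 3p was higher in ob/ob by 1.37 at 9 weeks (exact permutation p = 0.0571, adjusted 0.0914) and by 1.46 at 14 weeks (exact permutation p = 0.0286, adjusted 0.0914). Adding 0.1 RPM in place of 0.5 gave 1.19 and 1.06, and adding 1 RPM gave 1.44 and 1.63. With nothing added, a choice made after seeing the data, the difference was 1.09 at 9 weeks (exact permutation p = 0.0571, adjusted 0.114) and 0.80 at 14 weeks (exact permutation p = 0.0857, adjusted 0.137). The ratios themselves were then 2625 to 8329 in wt and 8768 to 12466 in ob/ob at 9 weeks, and 3364 to 7768 and 7533 to 10669 at 14 weeks, where they overlapped. With 3 to 14 reads behind the 3p value in wt, the 95% Wilson intervals of the 3p share overlapped in 11 of 12 pairs of a wt and an ob/ob library at 9 weeks and in 14 of 16 at 14 weeks. These intervals cover counting error only, and their overlap is no test of the groups. The 3p arm of miR-215, which is no member, made up at most 1.20% of its hairpin's reads in any library.

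Of 6 listed hepatocyte miRNAs only 2 were present, miR-122-5p and miR-122-3p, and only miR-122-5p was tested. miR-122-3p stayed under 1 RPM. It averaged 0.461 ± 0.215 RPM in wt (SD, n = 4) and 0.359 ± 0.285 in ob/ob (n = 3) at 9 weeks. At 14 weeks it averaged 0.421 ± 0.381 and 0.631 ± 0.368 RPM (n = 4 each). miR-122-5p is the dominant miRNA of hepatocytes. At 9 weeks it was at 73.1, 18.4, 24.2 and 69.4 RPM in wt and at 113, 158 and 228 RPM in ob/ob. Its log2 fold change there was 2.02 ± 0.55 (SE, limma adjusted p = 0.0244), where 5.03% of all tested were called higher. At 14 weeks it was at 101, 20.2, 15.2 and 50.6 RPM in wt and at 48.8, 36.9, 54.3 and 79.4 RPM in ob/ob (0.57 ± 0.55, adjusted p = 0.551). The summed level of both arms was 18.6 to 73.8 RPM in wt and 113 to 228 in ob/ob at 9 weeks, and 15.4 to 102 and 37.0 to 80.1 at 14 weeks, and no library had miR-122-5p at 0. At 9 weeks miR-122-5p and miR-192-5p were thus both higher in ob/ob, and the part of hepatocyte RNA in the miR-192-5p result was not tested.

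The level of miR-192-5p was 14.7 to 156 times that of miR-122-5p in the 15 libraries. This ratio overlapped between genotypes at 9 weeks, with 25.0 to 58.4 in wt and 22.6 to 32.6 in ob/ob. At 14 weeks it was 14.7 to 64.6 in wt and 60.1 to 156 in ob/ob, and ob/ob replicate 1 lay within the wt range.

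**Figure D4:**
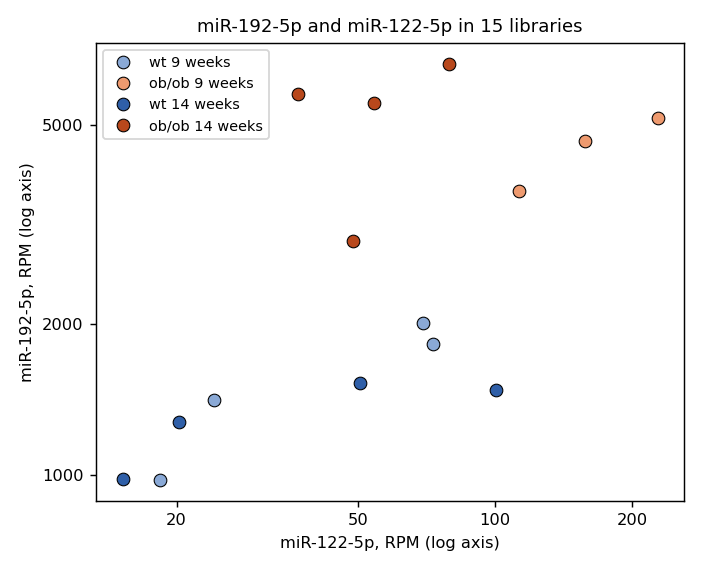
RPM of miR-192-5p (y axis) against miR-122-5p (x axis), both logarithmic, with a point for each of the 15 libraries coloured by genotype and age. The ob/ob libraries of 9 weeks are high on both axes, and those of 14 weeks are high in miR-192-5p at miR-122-5p levels of 36.9 to 79.4 RPM, inside the wt range of that age.

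Other cells of the liver were read through marker lists. Of 4 tested epithelial miRNAs, of bile duct and other epithelium, none passed at 9 weeks as deposited. At 14 weeks miR-141-3p rose (1.20 ± 0.36, SE, limma adjusted p = 0.0495), where 11.7% of all tested were called higher. After rescaling miR-141-3p rose at both ages, where 11.3% at 9 weeks and 15.5% at 14 weeks were called higher. As deposited, the 5 epithelial miRNAs present, of which 4 were tested, summed to 51.5 to 71.5 RPM in wt and 54.8 to 88.2 in ob/ob at 9 weeks. At 14 weeks they summed to 24.1 to 56.9 and 52.97 to 103 RPM. Of 3 listed erythroid miRNAs only miR-144-5p was present. It rose at both ages (log2 fold changes 3.59 ± 0.29 and 4.06 ± 0.35, SE, limma adjusted p = 0.000266 and 0.000108), from at most 1.49 RPM in wt to at least 11.6 in ob/ob. Of all tested miRNAs, 5.03% at 9 weeks and 11.7% at 14 weeks were called higher. At 14 weeks the wt libraries held 0.331 to 0.974 RPM of miR-144-5p, so there it passed the filter of 1 RPM only through the ob/ob libraries. Of 5 tested macrophage miRNAs, miR-511-3p fell at 9 weeks (-1.07 ± 0.24, limma adjusted p = 0.00984), where 32.4% of all tested were called lower. At 14 weeks miR-155-5p rose (1.31 ± 0.32, limma adjusted p = 0.0201), where 11.7% were called higher. After rescaling miR-511-3p no longer passed at 9 weeks. On that scale miR-146a-5p rose at 9 weeks and miR-155-5p at 14 weeks, where 11.3% and 15.5% of all tested were called higher. Of 6 tested stellate and mesenchymal miRNAs 3 fell at 9 weeks, miR-199a-3p, miR-214-3p and miR-214-5p, and so did miR-126a-3p, 1 of 2 endothelial ones, where 32.4% of all tested were called lower. After rescaling, of these 4 miRNAs only miR-199a-3p fell at 9 weeks, where 10.2% of all tested did. At 14 weeks none of either list passed as deposited, and miR-143-3p of the stellate list rose after rescaling. None of 3 lymphocyte miRNAs passed at either age on either scale. The part of these cell types in the levels of the miR-192 family was not tested.

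Among miRNAs linked to p53 other than the family, 6 of 10 were tested at each age. At 9 weeks miR-34a-5p was called higher and none lower (5.03% of all tested were higher), around a median log2 fold change of -0.18 (-0.51 over all tested), and at 14 weeks miR-34a-5p and miR-34c-5p were called higher and none lower (11.7% of all tested were higher), around 0.89 (0.20 over all tested). After rescaling miR-34a-5p alone was called at 9 weeks, and miR-34a-5p, miR-34c-5p and miR-143-3p at 14 weeks, all higher. miR-34a-5p is a direct p53 target. At 9 weeks it stood at 5.54 ± 1.72 RPM in wt (SD, n = 4) and at 13.6 ± 1.51 RPM in ob/ob (n = 3) (log2 fold change 1.26 ± 0.28, SE, limma adjusted p = 0.00984). At 14 weeks it stood at 4.76 ± 1.17 and 18.0 ± 4.56 RPM (n = 4 each, 1.81 ± 0.28, adjusted p = 0.00256).

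miR-34a-5p was also the miRNA whose log2 level was most like that of miR-192-5p over the 15 libraries, among 109 with a mean of at least 10 RPM and no value of 0. Pearson's r was 0.956, and 0.687 after the mean of each group was taken out. Its mean over the 15 libraries was 10.3 RPM, and only its ob/ob groups averaged above 10 RPM. Among the 168 miRNAs with no value of 0 and no filter on the mean, a choice made after seeing the data, it was also first, and miR-144-5p (r = 0.943), with a mean of 9.71 RPM, was second. Next outside the family with the filter were miR-31-5p (r = 0.927, and 0.586 without group means), miR-146b-5p (0.892 and 0.782), miR-374b-5p (0.842 and 0.321) and miR-141-3p (0.807 and 0.700). miR-194-5p had r of 0.859 and 0.450. miR-215-5p had 0.375, place 25 of 109, and -0.356 without group means. These values describe libraries that fall into wt and ob/ob groups and share depth and scaling, and no test was made of them.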

How the data were processed

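Small RNA of 15 Kupffer cell libraries was read from a table for each age, both listing 248 mature miRNAs. The values were deposited by the authors and are taken here as RPM, a unit inferred from the values. Per the submitters' processing notes, cutadapt and bcl2fastq were used, with mm10 and GRCm38.p5 as named builds. No source used here gives the aligner, counting tool, miRNA annotation or denominator, or how reads common to several hairpins or to near-identical miRNAs were assigned. Per library 99.1% to 100.0% of values lay within 0.1 reads of a whole multiple of the library's step, which gave the implied reads. Of the values up to 20 implied reads, 24 to 71 per library, all were whole within 0.1 reads, too few to establish read counts, so no count model was run and implied reads are estimates.

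limma 3.58.1 (R 4.3.3, trend and robust) was run on log2(RPM + 0.5) within each age, with Benjamini-Hochberg adjustment over all miRNAs tested and a threshold of 0.05. A miRNA needed 1 RPM in 3 (9 weeks) or 4 (14 weeks) libraries. Rescaling factors came from miRNAs above 0 in every library of that age, averaging 5 RPM or more. Levels were not tested across the tables. Ratios, on log2(RPM + 0.5), were tested by exact permutation (scipy 1.17.1, smaller tail doubled). The limma fit was tested on simulated data. Named miRNAs were the 4 members, set markers, listed miRNAs called at both ages and the 5 outside the family most like miR-192-5p. Other listed miRNAs were named after their values were seen. Alternatives were pseudocounts of 0.1 and 1 RPM, no filter, rescaling, a replicate block, lanes, a fit of all 15 libraries, no robust option and leaving out each library. Members, lists and tests were chosen with earlier results of these data known.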

Additional observations from a re-analysis of the deposited data

Results flagged for a closer look

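Within groups of 4 libraries, 24 sets of member levels and ratios were checked for a library far from the others, of which chance alone picks out about 1 in 20. In wt at 9 weeks, replicate 1 had 0.220 RPM of miR-192-3p against 0.350 to 0.372 in the other 3, although each of the 4 libraries held 5 implied reads. In wt at 9 weeks, replicate 2 had a log2 ratio of miR-192-5p to miR-215-5p of 4.12, below the other 3. In wt at 14 weeks, replicate 4 had a log2 ratio of miR-192-5p to miR-192-3p of 11.07, above the other 3 on the log2(RPM + 0.5) scale. With nothing added, replicate 3 had the highest ratio, 7768, and replicate 4 had 7333.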

How the results depend on the processing

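miR-192-5p kept its direction and its call at both ages under every alternative run except lane 1 alone at 14 weeks (1.58, limma adjusted p = 0.377). Leaving out 1 library gave it log2 fold changes of 1.36 to 1.71 at 9 weeks and 1.81 to 2.20 at 14 weeks. Pseudocounts of 0.1 and 1 RPM, no filter and no robust option changed no call of a member. Where a value below moved, the cause was not tested.

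Rescaling gave 38 calls at 9 weeks and 47 at 14 weeks (67 and 26 as deposited). It gave miR-194-5p 0.93 (adjusted p = 0.0238) and 0.58 (0.120), miR-215-5p 1.0002 (0.0457) at 14 weeks, and turned the interaction to -0.35 for miR-192-5p and -0.36 for miR-194-5p. The other counts of calls were 48 at 14 weeks with all 15 libraries in a fit, 1 in lane 1 alone, 51 in lane 2 alone, and 4 for the interaction with no filter. miR-194-5p at 14 weeks had 0.79 with lane as a covariate (adjusted p = 0.0579) and 0.70 in lane 1.

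Leaving out 1 library gave 53 to 71 calls at 9 weeks, 13 (without ob/ob replicate 3) to 46 (without wt replicate 1) at 14 weeks, where 15 came without wt replicate 3, and 0 to 3 for the interaction. miR-194-5p ran from 0.24 to 0.56 and from 0.76 to 0.84, miR-215-5p from -0.14 to 0.51 and from 0.76 to 1.48, at 9 and 14 weeks. The log2 ratio of miR-194-5p to miR-215-5p differed by -0.27 to 0.70 and by -0.70 to 0.0271.

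Rescaling together with leaving out 1 library was chosen after seeing the data. At 9 weeks it gave 38, 19, 16 and 22 calls without wt replicates 1 to 4 and 20, 37 and 20 without ob/ob replicates 1 to 3. There miR-194-5p had 1.04, 0.80 and 0.98 without wt replicates 1, 2 and 4 and 0.81 and 1.05 without ob/ob replicates 2 and 3, and miR-215-5p had 1.08 without ob/ob replicate 2. At 14 weeks calls numbered 48 without wt replicate 1 and 55 without ob/ob replicate 1, within a range of 28 to 55. miR-194-5p had 0.51, 0.47 and 0.50 without wt replicates 2 to 4 and 0.62, 0.61, 0.56 and 0.46 without ob/ob replicates 1 to 4, and miR-215-5p had 1.17 without ob/ob replicate 4.

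Replicate numbers were shared by wt and ob/ob, but same-numbered libraries did not deviate together (r = 0.28, 0.14 and -0.14 at 9 weeks, and -0.24, 0.10, 0.20 and 0.09 at 14 weeks), so the numbers were not taken to pair the libraries, although at 14 weeks same-numbered libraries also shared a lane. With the replicate block there were 32 calls at 9 weeks and 2 for the interaction. miR-192-5p had 1.71 (adjusted p = 0.0142) and 1.94 (0.0243), and miR-194-5p at 14 weeks had 0.79 (0.126). Depth limits miR-192-3p most, with 3 to 75 implied reads.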
